A study of Mus musculus with 95 samples.

Results

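Gene expression in the striatum of heterozygous (Het) Huntington's disease knock-in mice was set against gene expression in their cortex, to ask which differences between these brain regions remained in knock-in brain. The libraries were chosen by genotype and tissue label alone: 15 from Het striatum and 16 from Het cortex, which are 31 of the 95 libraries of the series. The neo-out Het group came from strain CHDI-81003019, labelled Z_Q175 (neo -) KI, and the neo-in Het group from strain CHDI-81003003, labelled z_Q175 KI; the lines differ in whether the neo cassette is present. Both lines were on a C57BL6/J background, and every animal was 6 months old when the left striatum and left cortex were taken. Each line had 4 female and 4 male Het animals. The first neo-out Het male entered with its cortex alone, so it dropped out of the paired fit and 15 animals gave both regions. Wild-type littermates of both lines, 16 animals with both regions, served as the comparison for what the regional difference is without the mutation. Het animals carry 1 knock-in allele and 1 normal allele in every cell, and the counts of Htt do not separate these. The CAG repeat number given for the paired animals was 193 to 208 in neo-out Het mice (median 204, n = 7) and 181 to 200 in neo-in Het mice (median 192, n = 8).

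The neurons of the striatum are almost wholly GABAergic spiny projection neurons, which read dopamine through cyclic AMP signalling. They leave the striatum by the direct pathway (dopamine receptor D1) or the indirect pathway (dopamine receptor D2). The cortex is dominated by glutamatergic excitatory neurons arranged in layers, which project to the striatum. In Huntington's disease an expanded CAG repeat in HTT affects spiny neurons first and most, and loss of their characteristic transcripts is a known feature of knock-in mouse models. A regional difference here is the log2 level in striatum less the log2 level in cortex of the same animal, so a positive value means higher in striatum.

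The promoters of 4 genes that mark the extremes of the data are shown first, because the results come back to them. Drd2 (dopamine receptor D2) and Slc17a7 (the vesicular glutamate transporter of cortical neurons) stood at opposite ends of the Het regional difference. Sfmbt2 (a Polycomb-group gene) and Ryr1 (an intracellular calcium release channel) were among the genes whose regional difference was most altered in Het animals. Each window runs from 250 bases before to 50 after the RefSeq start, on the gene's own strand, 5′ to 3′ (GRCm38.p6), and capitals mark GGGCGG on either strand, the core of the GC box.
Drd2, chr9:49340153-49340452, plus strand: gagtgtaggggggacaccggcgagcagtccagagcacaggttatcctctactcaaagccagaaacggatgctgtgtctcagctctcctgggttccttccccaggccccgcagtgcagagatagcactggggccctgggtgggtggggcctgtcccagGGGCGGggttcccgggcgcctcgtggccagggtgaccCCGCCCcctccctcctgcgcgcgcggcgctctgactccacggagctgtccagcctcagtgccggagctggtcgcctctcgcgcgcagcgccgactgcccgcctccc
Slc17a7, chr7:45163671-45163970, plus strand: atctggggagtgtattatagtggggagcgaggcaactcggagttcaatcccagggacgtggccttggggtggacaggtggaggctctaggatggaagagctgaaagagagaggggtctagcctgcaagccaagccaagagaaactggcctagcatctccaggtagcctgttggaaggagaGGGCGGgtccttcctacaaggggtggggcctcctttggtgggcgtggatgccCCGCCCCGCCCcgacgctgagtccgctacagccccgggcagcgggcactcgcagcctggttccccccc
Sfmbt2, chr2:10370201-10370500, plus strand: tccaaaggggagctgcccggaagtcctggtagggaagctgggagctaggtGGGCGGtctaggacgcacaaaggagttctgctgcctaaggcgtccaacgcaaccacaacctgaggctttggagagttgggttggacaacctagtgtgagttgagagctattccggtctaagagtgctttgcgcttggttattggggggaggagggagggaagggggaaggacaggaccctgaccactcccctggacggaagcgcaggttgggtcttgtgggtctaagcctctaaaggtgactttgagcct
Ryr1, chr7:29125102-29125401, minus strand: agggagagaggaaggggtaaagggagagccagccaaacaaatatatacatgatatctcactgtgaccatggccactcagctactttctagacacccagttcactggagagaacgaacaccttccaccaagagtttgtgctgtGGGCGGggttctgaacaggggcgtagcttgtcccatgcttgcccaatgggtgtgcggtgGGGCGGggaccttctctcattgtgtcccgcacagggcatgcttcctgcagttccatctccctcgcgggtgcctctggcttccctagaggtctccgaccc
The motif occurred 2 times in the Drd2 window, 3 times in that of Slc17a7 (2 of them overlapping), 1 time in that of Sfmbt2 (the first of 2 windows listed for this gene) and 2 times in that of Ryr1. It is also present in 35.7% of all 32851 promoter windows of the same length, and its presence is a description of the letters only.

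The libraries held 31.1 to 40.3 M (mega) expected counts in Het striatum (median 35.4 M) and 31.3 to 42.1 M in Het cortex (median 35.7 M), against 32.6 to 43.1 M in wild-type striatum and 31.0 to 44.0 M in wild-type cortex. The regions matched their labels. The cortical transporter Slc17a7 was at 5.92 to 74.6 CPM (counts per M counts of the TMM-scaled library) in Het striatum against 979 to 1157 CPM in Het cortex, while Drd2 was at 80.5 to 111 CPM in Het striatum against 0.348 to 2.11 CPM in Het cortex. Genes abundant in neighbouring tissue varied between animals: Ttr of the choroid plexus reached 76.7 CPM in Het striatum and 625 CPM in Het cortex, and Prkcd, abundant in thalamus, reached 141 CPM in Het striatum. Wild-type libraries reached higher maxima, with up to 142 CPM of Slc17a7 and 1334 CPM of Ttr in striatum and up to 8.87 CPM of Drd2 in cortex.

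Htt, the targeted gene (ENSMUSG00000029104, GRCm38 chromosome 5, start 34761740, end 34912534, plus strand), was slightly lower in striatum than in cortex of Het animals. It was at 118.6, 157.3 and 175.1 CPM in Het striatum (lowest, median and highest of the paired libraries) and at 164.3, 175.3 and 188.4 CPM in Het cortex, so the groups overlapped. The mean paired difference was -0.19 ± 0.13 log2 CPM (SD, n = 15 pairs), striatum was higher in 1 of the 15 animals, and the two-sided exact paired permutation test gave p = 0.000122. The difference was -0.16 in neo-out Het mice (exact p = 0.0156, the smallest that 7 pairs allow) and -0.22 in neo-in Het mice (exact p = 0.0156). Wild-type animals had medians of 196 CPM in striatum and 227 CPM in cortex and a fitted regional difference of -0.21, against -0.19 in Het animals, and the difference between the genotypes was not called (adjusted p = 0.778).

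Most genes differed between the Het regions. With edgeR's quasi-likelihood test and Benjamini-Hochberg adjustment over 17753 genes, 13350 (75.2%) passed an adjusted p of 0.05, of which 6774 (38.2%) were higher and 6576 (37%) lower in striatum. Most differences were small: 2418 genes (13.6%) were called and differed by 2-fold or more, 1100 (6.2%) of them higher and 1318 (7.42%) lower in striatum. In 4527 genes (25.5%) the lowest library of one region lay above the highest of the other. These shares are the background against which each gene group below should be read. Each region is a mixture of cell types, so fewer cells of a type and less RNA per cell cannot be told apart.

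The genes highest in Het striatum relative to cortex, leaving out predicted genes, included Lhx8, Isl1, Six3, Chat and Drd2. Lhx8, a transcription factor of forebrain cholinergic neurons, was at 7.23, 9.36 and 13.7 CPM in Het striatum and at 0, 0 and 0.062 CPM in Het cortex. Its fitted difference of 8.75 ± 0.39 log2 (SE, adjusted p = 4.63e-20) rested on 11 counts over all 15 cortex libraries, so its size is uncertain while its direction held in 15 of 15 animals. Isl1, a transcription factor of direct-pathway and cholinergic neurons, was at 18, 21.1 and 23.7 CPM in Het striatum and at 0.0241, 0.087 and 0.513 CPM in Het cortex (7.08 ± 0.37, adjusted p = 6.89e-18). Chat, the enzyme that makes acetylcholine, was at 22.6, 26.5 and 32.2 CPM in Het striatum and at 0.054, 0.299 and 0.566 CPM in Het cortex, a 97.2-fold difference (6.60 ± 0.21, adjusted p = 7.54e-24). No striatal library overlapped a cortical one for any of these genes. A further gene of the cholinergic phenotype belonged to the extremes as well: Slc10a4, a vesicular protein of cholinergic and monoaminergic neurons (7.32 ± 0.29). Six3, a homeobox transcription factor of indirect-pathway neurons, was 176-fold higher in Het striatum, and Drd2 was 109-fold higher, with 80.5, 90.5 and 111 CPM in Het striatum against 0.348, 0.746 and 2.11 CPM in Het cortex (6.77 ± 0.25, adjusted p = 4.91e-22). Serpina9 (6.46 ± 0.25), Sh3rf2 (6.64 ± 0.21) and the desmosomal cadherin Dsg1c (7.46 ± 0.43, 15 cortical counts in all) also belonged to this group. Lhx8 and Chat are also expressed in the septum and pallidum next to the striatum, and 18 of 21 markers of other forebrain regions were called higher in Het striatum (median 1.12). Their summed level was 638 to 887 CPM in Het striatum and 420 to 523 CPM in Het cortex, and their part in these differences was not tested.

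The genes lowest in Het striatum relative to cortex included several of cortical excitatory neurons. Slc17a7, whose promoter is given above, was at 5.92, 15.3 and 74.6 CPM in Het striatum and at 979, 1070 and 1157 CPM in Het cortex, 53.1-fold lower in striatum (-5.73 ± 0.36, adjusted p = 6.64e-16). Neurod2, a transcription factor of excitatory neurons, was at 0.244, 0.741 and 3.66 CPM in Het striatum against 51.5, 65.4 and 82.7 CPM in Het cortex (-5.75 ± 0.31). The striatal values of these genes varied more widely between animals than the cortical ones, and the regions never overlapped. Emx1, a homeobox gene of the developing cortex (-5.84 ± 0.28), and Slc30a3, which loads zinc into synaptic vesicles (-5.73 ± 0.29), showed the same pattern. The largest difference was in Igfn1, a gene known from skeletal muscle, with 0.0284, 0.157 and 1.5 CPM in Het striatum and 48.3, 59 and 78.6 CPM in Het cortex (-7.57 ± 0.27, 189-fold lower in striatum). Ntn5, a netrin (-7.06 ± 0.24), Ovol2, a zinc-finger transcription factor (-6.43 ± 0.28), Dkkl1 (-5.71 ± 0.25) and the serpin Serpinb8 (-5.65 ± 0.17) belonged to this group as well.

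**Figure D1:**
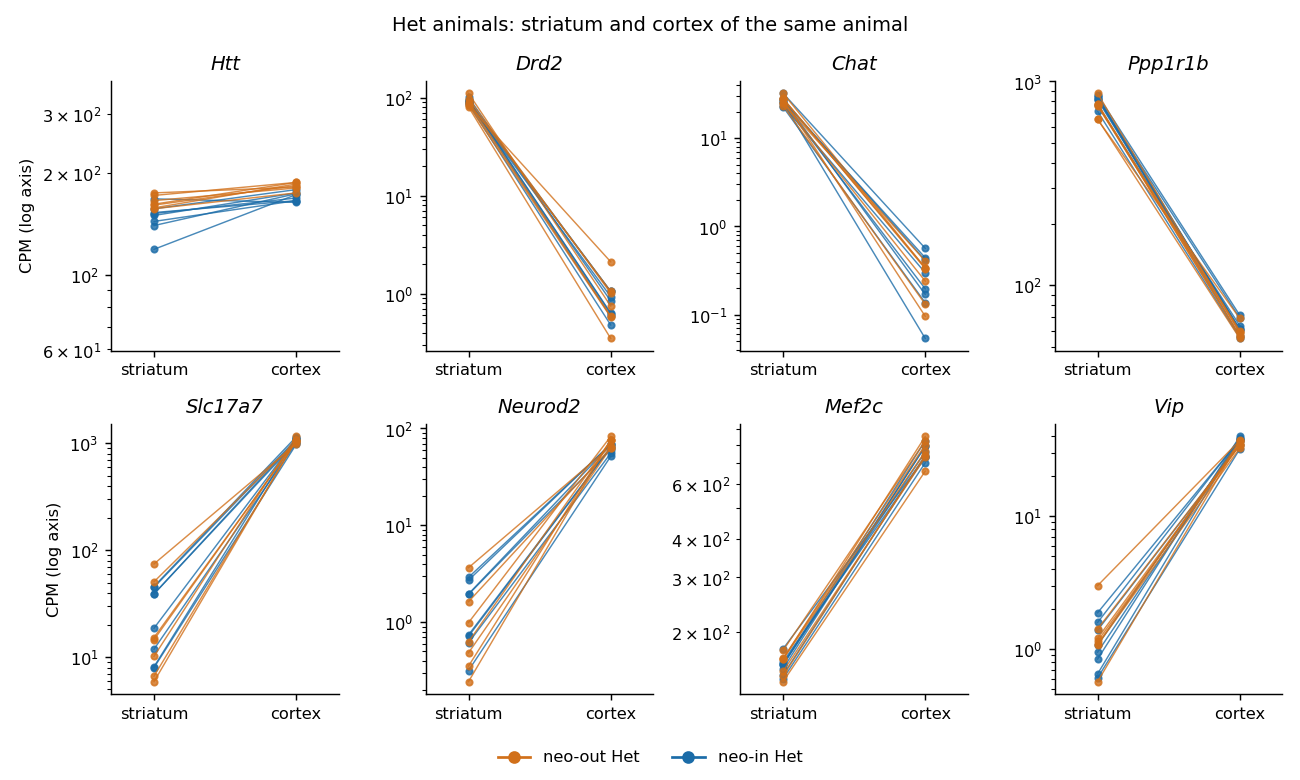
CPM (log axis) of 8 genes in striatum (left) and cortex (right) of the 15 paired Het animals, with a line joining the regions of each animal and colour giving the line. Drd2, Chat and Ppp1r1b were higher in striatum in every animal, Slc17a7, Neurod2, Mef2c and Vip were lower, and Htt overlapped between the regions, with medians of 157.3 CPM in striatum and 175.3 CPM in cortex.

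The identity genes of spiny neurons remained far higher in Het striatum than in Het cortex. Of 42 tested, 36 were called higher and 3 lower, 33 were higher by 2-fold or more, and the median difference was 2.39, against 0.01 over all genes. Ppp1r1b (DARPP-32, the protein phosphatase inhibitor that integrates dopamine signals) was at 651, 778 and 875 CPM in Het striatum and at 54.9, 59.9 and 71.3 CPM in Het cortex (3.69 ± 0.06, adjusted p = 2.43e-31). Rasd2 (Rhes, a striatal small GTPase) was at 383, 456 and 513 CPM in Het striatum and at 58.3, 67 and 73.7 CPM in Het cortex (2.75 ± 0.04, adjusted p = 4.38e-33). Pde1b, a calcium-activated phosphodiesterase, was 6.08-fold higher in Het striatum, Pcp4l1, a calmodulin-binding protein, 4.9-fold, and Gng7, the G protein gamma subunit that couples dopamine and adenosine receptors, 13.5-fold. All of these separated the regions in every animal. The 3 genes called lower included Ddit4l, an inhibitor of mTOR signalling, with 6.95, 9.05 and 13.1 CPM in Het striatum and 20.4, 23.7 and 31.3 CPM in Het cortex (-1.43 ± 0.05, adjusted p = 1.64e-23). The list was put together with earlier results of these data known, so its direction is not independent evidence.

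For many of these genes the step between regions was smaller in Het than in wild-type animals. The list median was 2.39 in Het animals and 3.05 in wild-type animals. Gene by gene, the change of the step was smaller than these medians imply, with a median of -0.32. The regional difference between genotypes (Het less wild type) was called in 24 of the 42 genes, all 24 lower in Het, where 12.6% of all genes were called and 6.92% were lower. In 21 of the 24 the gap between the regions was smaller in Het animals and in 3 it was larger, Ddit4l among them. Over all 17753 genes tested the gap was called smaller in 1399 and larger in 840. Without the animals whose libraries held markers of the other region, 1 Het and 6 wild-type, 31 of the 42 were called lower. Scn4b, an auxiliary sodium channel subunit, was at 536, 651 and 832 CPM in Het striatum and at 102, 124 and 142 CPM in Het cortex, against medians of 1511 CPM in wild-type striatum and 156 CPM in wild-type cortex. Its regional difference was 2.42 in Het animals and 3.29 in wild-type animals (-0.87 ± 0.07, adjusted p = 1.13e-10), and no Het animal overlapped a wild-type one. Cnr1, the cannabinoid receptor CB1, was at 170, 204 and 237 CPM in Het striatum and at 123, 142 and 165 CPM in Het cortex, with wild-type medians of 398 and 161 CPM. Its regional difference was 0.52 in Het animals and 1.34 in wild-type animals (-0.82 ± 0.06, adjusted p = 2.34e-11). Adcy5, the main adenylyl cyclase of striatum, had a regional difference of 2.37 in Het animals and 3.03 in wild-type animals (-0.66 ± 0.06, adjusted p = 3.39e-10). For other identity genes the test of the difference was not passed: Ppp1r1b had 3.69 in Het animals and 3.83 in wild-type animals, Adora2a (the adenosine receptor of indirect-pathway neurons) 5.56 and 5.69, and Rgs9, which turns off D2 receptor signalling, 4.82 and 5.04. For Ppp1r1b the Het medians were 778 CPM in striatum and 59.9 CPM in cortex, against 1253 CPM in wild-type striatum and 85.7 CPM in wild-type cortex, so the Het medians were the lower ones in both regions.

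Direct- and indirect-pathway genes both kept their striatal excess. Of 10 direct-pathway genes 8 were called higher in Het striatum and 1 lower (median 2.28 in Het and 2.29 in wild-type animals), and of 9 indirect-pathway genes 7 were higher and 1 lower (median 3.50 in Het and 4.12 in wild-type animals). Gene by gene, the regional difference between genotypes had a median of 0.04 for the direct and -0.03 for the indirect pathway. It was called lower in Het for 2 direct-pathway genes and higher for 1. Only 1 indirect-pathway gene was called, lower in Het, and its gap between the regions was larger in Het animals. Drd1 was at 150, 174 and 210 CPM in Het striatum and at 8.97, 13 and 15.1 CPM in Het cortex (3.84 ± 0.10, adjusted p = 1.22e-26). Tac1, the substance P precursor of direct-pathway neurons, was at 166, 192 and 227 CPM in Het striatum and at 7.27, 8.56 and 12.9 CPM in Het cortex, a difference of 4.42 in Het animals and 3.88 in wild-type animals that was not called between genotypes (adjusted p = 0.0582). Penk, the enkephalin precursor of indirect-pathway neurons, was at 470, 582 and 635 CPM in Het striatum and at 19.6, 27.6 and 39.3 CPM in Het cortex (4.37 ± 0.15, adjusted p = 2.36e-23). Striatal Penk had a median of 1247 CPM in wild-type animals, and its regional difference of 4.77 there did not differ from that in Het animals by the test (adjusted p = 0.155). Gpr6, an orphan receptor of indirect-pathway neurons, was 39.1-fold higher in Het striatum and Adora2a 47.2-fold. In both pathways regions never overlapped for the genes named. Chrm4, the muscarinic M4 receptor that opposes D1 signalling, was the direct-pathway gene with the clearest change of the regional step, 0.65 in Het animals against 1.38 in wild-type animals (-0.73 ± 0.07, adjusted p = 9.24e-09). Without the animals with markers of the other region, 4 direct-pathway genes were called lower in Het in place of 2, and the wild-type median of the indirect-pathway list was 4.69 in place of 4.12. The gene-by-gene medians were then -0.21 for the direct and -0.32 for the indirect pathway.

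**Figure D2:**
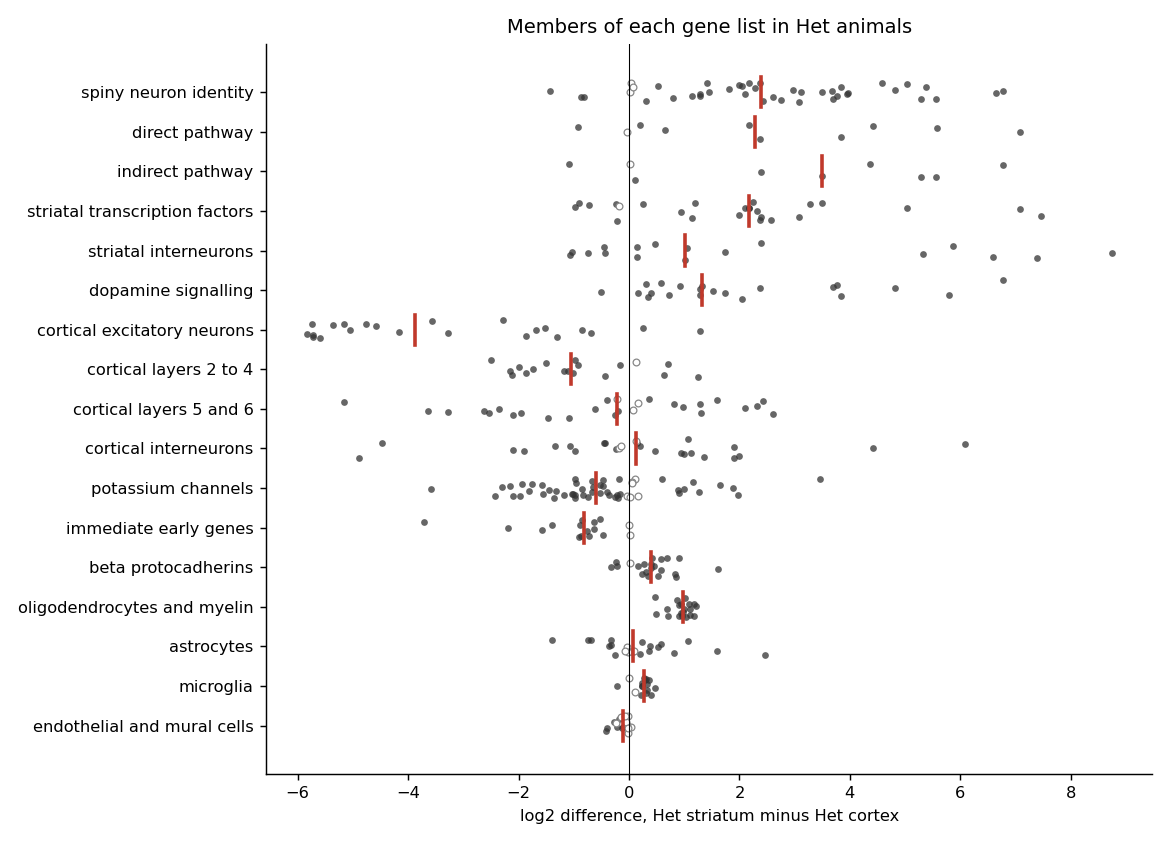
Regional difference (log2, Het striatum minus Het cortex) of each tested member of the gene lists, 1 point per gene, with the list's median marked. All myelin genes and most spiny neuron and dopamine genes lie to the right of 0, and most cortical excitatory genes to the left. Medians were 2.39 for spiny neuron identity and -3.87 for cortical excitatory neurons.

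Transcription factors of striatal neurons followed the same order. Of 25 tested, 19 were called higher and 5 lower in Het striatum, 17 higher by 2-fold or more (median 2.17 in Het and 2.34 in wild-type animals). Rxrg, a retinoid X receptor, was at 71.1, 76.1 and 88.1 CPM in Het striatum and at 1.33, 2.36 and 3.54 CPM in Het cortex (5.03 ± 0.14), and Rarb, a retinoic acid receptor, was 11.3-fold higher in Het striatum. Foxp2 (5.01-fold), Ebf1 (4.52-fold), Meis1 (5.98-fold) and Sp9 (5.26-fold), which direct the development of spiny neurons, also separated the regions in all animals. The regional step was called smaller in Het animals for Bcl11b (CTIP2, needed for spiny neuron differentiation; 2.10 in Het and 2.42 in wild-type animals, -0.32 ± 0.06), Foxp1 (1.14 and 1.50, -0.37 ± 0.06) and Foxo1 (2.24 and 2.63, -0.39 ± 0.08). Gene by gene, the regional difference between genotypes had a median of -0.06 over the 25. Without the animals with markers of the other region, 8 of the 25 were called lower in Het in place of 4. In the main fit 6.92% of all genes were called lower.

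Interneuron genes were split by type. Of 17 genes of striatal interneurons 12 were higher and 5 lower in Het striatum (median 1.01 in Het and 0.95 in wild-type animals, and 0.99 and 1.02 without the animals with markers of the other region). The cholinergic genes were highest, Slc5a7 (the choline transporter) with 48.2, 60.3 and 68.6 CPM in Het striatum and 0.65, 0.998 and 1.54 CPM in Het cortex (5.87 ± 0.21, adjusted p = 1.29e-22). Npy, a peptide of a small GABAergic population in both regions, went the other way, with 21.2, 26.3 and 31.8 CPM in Het striatum and 47.9, 54.4 and 63 CPM in Het cortex (-1.07 ± 0.05, adjusted p = 6.08e-20). Among 26 genes of cortical interneurons 13 were higher and 10 lower in Het striatum, and 0 were called between genotypes in their regional difference (edgeR and DESeq2, with 3 higher and 1 lower in Het at an unadjusted p under 0.05). The count was 2 higher without the animals high in Prkcd, 1 lower without those with markers of the other region and 1 higher without the pairing by animal. Vip, the peptide of a disinhibitory cortical class, was at 0.57, 1.09 and 3.01 CPM in Het striatum and at 32.1, 36.8 and 39.9 CPM in Het cortex (-4.89 ± 0.14). Gad1 and Gad2, the enzymes that make GABA, were 2-fold and 3.74-fold higher in Het striatum. Chat itself had a regional difference of 6.60 in Het animals and 5.49 in wild-type animals (1.11 ± 0.37, adjusted p = 0.0416). This call was lost (0.47, adjusted p = 0.262) without the animals with markers of the other region, and it was 0.17 in males alone. Striatal Chat had medians of 26.5 CPM in Het and 27.7 CPM in wild-type animals, while wild-type cortex reached 3.33 CPM.

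Genes of cortical excitatory neurons kept their cortical excess in Het brain. Of 22 tested, 20 were called lower in Het striatum and 2 higher, 18 lower by 2-fold or more, with a median of -3.87 in Het and -3.69 in wild-type animals. The regional difference was called lower in Het for 3 of the 22, and for 6 without the animals high in Prkcd. In the main fit 6.92% of all genes were called lower. Without the animals with markers of the other region the medians were -3.92 in Het and -3.98 in wild-type animals, so their order depends on those animals. Mef2c, a transcription factor of excitatory neurons, was at 139, 158 and 177 CPM in Het striatum and at 658, 758 and 850 CPM in Het cortex (-2.28 ± 0.04, adjusted p = 6.98e-30). Nptx1, a neuronal pentraxin that clusters glutamate receptors, was 11.9-fold lower in Het striatum, the synaptic vesicle protein Sv2b 3.23-fold and the kinase subunit Camk2a 2.47-fold. Of 18 genes of layers 2 to 4, 14 were lower and 3 higher in Het striatum (median -1.05), with Cux2 5.66-fold and Rorb 2.83-fold lower. Lamp5, of the same list, was 2.27-fold lower in Het striatum, and its step was smaller in Het animals (-1.18 in Het and -1.70 in wild-type animals, adjusted p = 3.06e-07). Genes of layers 5 and 6 were more mixed, with 14 of 27 lower and 10 higher in Het striatum (median -0.22). Sox5, which specifies deep-layer neurons, was 3.86-fold lower in Het striatum, whereas Foxp2 and Pcp4 of this list, which spiny neurons also express, were higher.

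Dopamine signalling genes leaned towards striatum, and the other transmitter groups were split. Of 21 dopamine signalling genes 20 were called higher in Het striatum and 1 lower (median 1.33 in Het and 1.15 in wild-type animals). Gene by gene, the regional difference between genotypes had a median of -0.02, with 3 genes called lower and 1 higher in Het. Over all genes tested, 6.92% were called lower and 5.69% higher. Without the animals with markers of the other region 6 were called lower and 0 higher. The list medians were then 1.34 in Het and 1.26 in wild-type animals. Gnal, the G protein that carries dopamine and adenosine signals to adenylyl cyclase, was at 647, 740 and 896 CPM in Het striatum and at 159, 183 and 202 CPM in Het cortex (2.05 ± 0.05, adjusted p = 1.49e-27). Serotonin receptors were divided, 5 of 12 higher and 6 lower in Het striatum. Htr1b (7.92-fold), Htr1d (15.6-fold), Htr4 (8.34-fold) and Htr2c (6.66-fold) were higher, with Htr2c at 104, 121 and 135 CPM in Het striatum and at 10.2, 19.7 and 30.1 CPM in Het cortex. The step of Htr1b was called smaller in Het animals (2.99 in Het and 3.38 in wild-type animals, adjusted p = 0.00133). That of Htr2c was called larger (2.74 and 1.92, adjusted p = 0.0175), but the adjusted p was 0.567 in males alone, at 0.30, and 0.0531 without the animals high in Ttr. Among 29 neuropeptides 11 were higher and 16 lower in Het striatum, with Pdyn, the dynorphin precursor, 5.2-fold higher. Of 15 opioid and cannabinoid genes 5 were higher and 9 lower, with the kappa receptor Oprk1 2.47-fold higher in Het striatum and Faah, which degrades anandamide, 3.49-fold lower. Acetylcholine receptors were 7 higher and 8 lower of 15, Chrm3 being 5.5-fold lower in Het striatum and Chrna4 2.74-fold lower (-1.45 in Het and -0.78 in wild-type animals, adjusted p = 0.000263).

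Several cyclic nucleotide enzymes had a smaller regional step in Het than in wild-type animals. Of 35 tested, 16 were higher and 14 lower in Het striatum, and the 8 whose regional difference was called between genotypes all had a smaller gap in Het animals. Over all 17753 genes tested, 1399 of the 2239 called between genotypes had a smaller gap in Het animals and 840 a larger one. Pde10a, the phosphodiesterase most typical of spiny neurons, was at 765, 994 and 1163 CPM in Het striatum and at 51.3, 71.7 and 123 CPM in Het cortex, with medians of 1791 CPM in wild-type striatum and 75.3 CPM in wild-type cortex. Its difference was 3.67 in Het animals and 4.42 in wild-type animals (-0.75 ± 0.14, adjusted p = 0.000191). Across the alternatives the difference between genotypes ran from -1.22 to -0.32. It was not called in the neo-in line alone or in females alone. Pde1b was at 670, 761 and 885 CPM in Het striatum and at 115, 125 and 141 CPM in Het cortex, with a difference of 2.60 in Het animals and 3.19 in wild-type animals (-0.58 ± 0.06, adjusted p = 3.82e-09), and no animal of one genotype overlapped the other. Pde7b was 4.59-fold higher in Het striatum, with a smaller change of its step (-0.22 ± 0.06), which was not called in the neo-out line alone or in either sex alone. Prkar1b, a regulatory subunit of protein kinase A, was 2.26-fold lower in Het striatum, and its cortical excess was smaller in Het animals (-1.18 in Het and -1.47 in wild-type animals, adjusted p = 6.33e-07).

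Among 38 RGS genes, which shorten G protein signals, and G protein subunits, 15 were higher and 17 lower in Het striatum, and the regional difference was called lower in Het for 9 and higher for 2. Over all genes tested, 6.92% were called lower and 5.69% higher. For Rgs4 no regional step was called in Het animals, and for Rgs14 the step was slightly negative in Het and positive in wild-type animals. Rgs4 was at 345, 423 and 550 CPM in Het striatum and at 371, 412 and 455 CPM in Het cortex, which did not differ by the test (0.07 ± 0.04, adjusted p = 0.16), while wild-type medians were 791 CPM in striatum and 495 CPM in cortex (0.68). The difference between genotypes was -0.61 ± 0.06 (adjusted p = 1.16e-08). Rgs14 was at 21.8, 25.9 and 33.7 CPM in Het striatum and at 22.2, 29.4 and 38 CPM in Het cortex (-0.16 ± 0.05, adjusted p = 0.00272), against wild-type medians of 51.2 and 30 CPM (0.77). The Het step of Rgs14 was not called in the neo-in line alone (-0.09, adjusted p = 0.189) or in females alone (-0.10, adjusted p = 0.0982). The genotypes differed by -0.93 ± 0.07 (adjusted p = 5.46e-12), and no Het animal overlapped a wild-type one for either gene. Pcp4, a calmodulin regulator, kept part of its step: its regional difference was 1.31 in Het animals and 1.92 in wild-type animals (-0.61 ± 0.06, adjusted p = 1.06e-09).

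Potassium channel genes leaned towards cortex, and the other channel and receptor groups were more evenly split. Of 54 potassium channel genes 38 were lower and 10 higher in Het striatum (median -0.59 in Het and in wild-type animals), and 12 were called lower and 1 higher in Het in their regional difference. The shares over all genes tested, for this group and those below, were 6.92% called lower and 5.69% higher. Kcnj6 (GIRK2) was 12.1-fold and Kcnh7 5.34-fold lower in Het striatum, while Kcnab1, a channel beta subunit, was at 252, 297 and 361 CPM in Het striatum and at 70.2, 81.5 and 90.4 CPM in Het cortex (1.88 in Het and 2.30 in wild-type animals, adjusted p = 1.4e-06). Kcng1 was the exception, with a larger step in Het animals (1.15 in Het and 0.56 in wild-type animals, adjusted p = 1.17e-08). Sodium, calcium and HCN channels were 13 higher and 16 lower of 33, and 10 of them had a regional difference called lower in Het and 2 higher (1 without the animals with markers of the other region). Cacng4, an AMPA receptor auxiliary subunit of the calcium channel family, was 4.4-fold higher in Het striatum. Glutamate receptors were nearly even, 11 higher and 12 lower of 25. Grm2 was 18.9-fold lower in Het striatum, and the striatal excess of Grik2 (1.17 in Het and 1.75 in wild-type animals) and Grm5 (0.89 and 1.14) was called smaller in Het animals. GABA and glycine receptors were 11 higher and 8 lower of 20. Gabbr2 was 3.96-fold lower in Het striatum, and Gabrd, the extrasynaptic delta subunit, had a step of 0.27 in Het and 0.72 in wild-type animals (adjusted p = 1.92e-07).

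Calcium store genes held Ryr1, whose regional step shrank sharply. Of 26 tested, 11 were higher and 10 lower in Het striatum, and the 5 called between genotypes were all lower in Het in their regional difference, while 1 was called higher without the animals with markers of the other region. Among all genes tested, 12.6% were called between genotypes and 6.92% were called lower. Ryr1 (chromosome 7, start 29003344, end 29125179, minus strand) was at 24.9, 33.7 and 40.2 CPM in Het striatum and at 17.1, 21.4 and 27.4 CPM in Het cortex, so the Het regions overlapped. In wild-type animals it was at 81.2, 120 and 165 CPM in striatum and at 22.1, 26.6 and 46.2 CPM in cortex. The regional difference was 0.59 in Het animals and 2.15 in wild-type animals (-1.56 ± 0.10, adjusted p = 2.49e-13), and the highest Het animal, at 0.89, lay below the lowest wild-type animal, at 1.44. Ryr3 kept its step, 2.67 in Het animals and 2.89 in wild-type animals. Itpr1, the receptor for inositol trisphosphate, was at 703.7, 870.3 and 1035.9 CPM in Het striatum and at 786, 834 and 871 CPM in Het cortex, with no difference called (0.05 ± 0.04, adjusted p = 0.22), against 0.53 in wild-type animals (difference between genotypes -0.48 ± 0.06, adjusted p = 2.03e-07).

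Immediate early genes, which report recent neuronal activity, were lower in Het striatum than in Het cortex. Of 16 tested, 14 were called, all lower in striatum, and the median was -0.81 in Het animals against -0.34 in wild-type animals. Arc was at 40, 66.2 and 128 CPM in Het striatum and at 71.4, 223 and 506 CPM in Het cortex (-1.58 ± 0.12, adjusted p = 2.28e-13). Levels varied widely between animals and the regions overlapped, yet striatum was lower in 15 of 15 animals. Egr2 had a step of opposite sign in the genotypes: it was at 2.41, 4.3 and 9.33 CPM in Het striatum and at 1.59, 7.08 and 19.4 CPM in Het cortex (-0.63 ± 0.12, adjusted p = 1.74e-05), against medians of 16.1 CPM in wild-type striatum and 9.31 CPM in wild-type cortex (0.79). The Het step of Egr2 was not called in the neo-in line alone (-0.40, adjusted p = 0.0555). The genotypes differed by -1.42 ± 0.16 (adjusted p = 7.84e-08). Egr1 (-0.85 in Het and -0.28 in wild-type animals, adjusted p = 3.73e-05) and Nr4a1 (-0.90 and -0.21, adjusted p = 1.43e-05) were called as well, as was Homer1, a synaptic scaffold with an activity-induced form (-0.55 and -0.01, adjusted p = 2.46e-07). Ier2 was 4.58-fold lower in Het striatum and was not called between the genotypes. Nr4a2, an orphan nuclear receptor that is also a marker of the claustrum and deep layers, was at 1.9, 4.44 and 9.66 CPM in Het striatum and at 43.3, 59.1 and 72.3 CPM in Het cortex (-3.72 ± 0.31).

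Retinoid, circadian and trophic genes gave smaller groups. Of 18 retinoid genes 9 were higher and 6 lower in Het striatum. Crabp1, a retinoic acid binding protein, was at 4.09, 5.35 and 6.46 CPM in Het striatum and at 0.0316, 0.136 and 0.496 CPM in Het cortex (4.93 ± 0.23), and Rbp4, the retinol carrier, had a larger cortical excess in Het animals (-0.82 in Het and -0.19 in wild-type animals, adjusted p = 2.07e-07). Of 20 clock genes 6 were higher and 12 lower in Het striatum, and the 9 called between genotypes were all lower in Het in their regional difference, while 1 was called higher without the animals with markers of the other region. The share called lower over all genes tested was 6.92%. Npas2, a partner of BMAL1, was at 37.4, 43.9 and 48 CPM in Het striatum and at 35.8, 40.9 and 46.5 CPM in Het cortex (0.05, adjusted p = 0.156), against 0.56 in wild-type animals (difference between genotypes -0.51 ± 0.05, adjusted p = 3.85e-09). Dbp, a clock output factor, had a step of 0.46 in Het and 0.98 in wild-type animals. Per2 was called between genotypes as well (-0.37 ± 0.06, adjusted p = 3.61e-05), but not without the pairing by animal (adjusted p = 0.162). Of 23 neurotrophin genes 8 were higher and 12 lower in Het striatum. Gdnf, a trophic factor for dopamine neurons, was at 3.92, 4.84 and 5.64 CPM in Het striatum and at 0, 0.058 and 0.189 CPM in Het cortex (5.89 ± 0.23, with 42 cortical counts in all), and Gfra2, a receptor of the same family, was 7.64-fold lower in Het striatum.

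Glial and vascular genes differed between the regions in their own ways. All 20 oligodendrocyte and myelin genes were called higher in Het striatum, 8 of them by 2-fold or more, with a median of 0.97 in Het and in wild-type animals, and 0 were called between the genotypes (edgeR and DESeq2, with 1 higher and 2 lower in Het at an unadjusted p under 0.05). Their summed level was 8725 to 11398 CPM in Het striatum and 4165 to 5786 CPM in Het cortex. Mog, a glycoprotein of the myelin surface, was at 95.4, 110 and 123 CPM in Het striatum and at 37.6, 47.4 and 60.3 CPM in Het cortex (1.17 ± 0.04, adjusted p = 1.04e-21), and Mobp (2.15-fold), Ermn (2.33-fold), Trf (2.25-fold) and Mal (2.13-fold) were similar. Oligodendrocyte precursor genes were 6 higher and 1 lower of 9, with Enpp6, a marker of newly forming oligodendrocytes, 2.51-fold higher in Het striatum. Microglial genes were 13 higher and 1 lower of 16 by small margins (median 0.28), for example Ctss at 1.38-fold and Cx3cr1 at 1.26-fold. The step of Cx3cr1 (0.33 in Het and 0.46 in wild-type animals) and that of Csf1r (0.24 and 0.38) were called smaller in Het animals. Cx3cr1 lost this call in either line alone, in either sex alone and with limma on log2 FPKM. Csf1r lost it in either line alone and in females alone. Astrocyte genes were mixed, 11 higher and 7 lower of 23, with Agt 5.49-fold and Sparc 2.09-fold higher and Chrdl1 2.62-fold lower in Het striatum. Of 17 endothelial and mural genes 8 were called, all lower in Het striatum, and 7 were called lower in Het in their regional difference, among them Flt1 (-0.13 in Het and 0.05 in wild-type animals, adjusted p = 0.000973) and Kdr (-0.22 and 0.01, adjusted p = 0.00107), both receptors for vascular endothelial growth factor. Over all genes tested, 6.92% were called lower in Het. Without the pairing by animal 4 of the 17 were called lower in Het in place of 7, and Kdr was among those that lost the call (adjusted p = 0.252). The count was 5 without the animals with markers of the other region. All 13 transcripts of the mitochondrial genome were higher in Het striatum (median 0.35 in Het and 0.40 in wild-type animals, and 0.38 and 0.37 without the animals with markers of the other region), mt-Cytb being 1.42-fold higher, and they held 12.6 to 15.2% of counts in Het striatum and 9.6 to 12% in Het cortex.

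Seen over all genes, most regional differences of wild-type brain remained in Het brain. In wild-type animals 13488 genes (76%) were called. Of these, 11801 were called in the same direction in Het animals and 118 in the opposite direction, while 1569 were called in wild-type animals only and 1431 in Het animals only. Among the 1194 genes (6.73%) that were 2-fold or more higher in wild-type striatum, 97.2% were called the same way in Het animals and 79.5% were still 2-fold higher. The Het difference was a median of 91.6% of the wild-type one, and it was called smaller in 218 and larger in 30. Among the 1381 genes (7.78%) that were 2-fold or more lower in wild-type striatum, 98.9% were called the same way, 84.4% were still 2-fold lower, the median was 97.7%, and 131 were called smaller and 56 larger. Both medians were lower without the animals with markers of the other region (1 Het and 6 wild-type), with the genes chosen again in that fit. They were 88.2% for striatum-enriched genes (246 called smaller, 16 larger) and 93.9% for cortex-enriched genes (146 smaller, 38 larger). Choosing genes by one genotype favours a larger value there, so the reverse choice is given beside it. Of the 1100 genes 2-fold or more higher in Het striatum, 120 were called smaller and 63 larger in Het animals, with a median of 100% of the wild-type difference, and of the 1318 genes lower in Het striatum 69 were called smaller and 102 larger, with a median of 102%. By either choice more of the striatum-enriched genes were called smaller in Het animals than larger, and for cortex-enriched genes the balance depended on which genotype chose them.

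**Figure D3:**
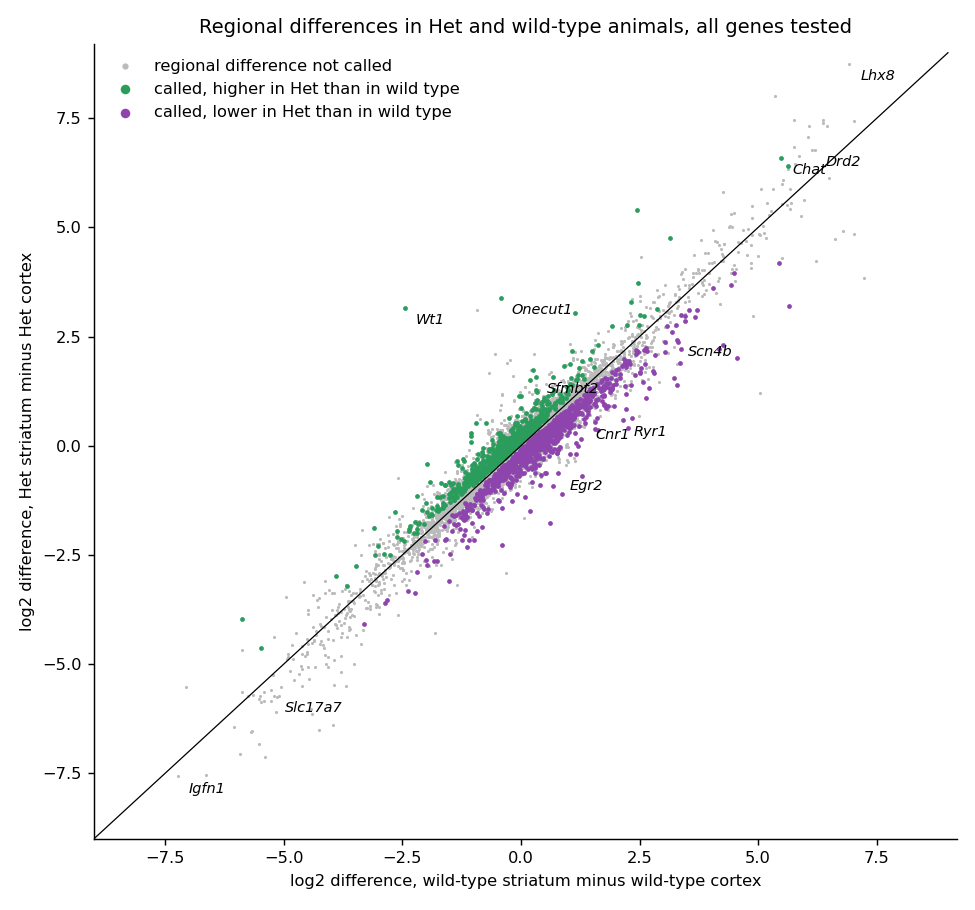
Regional difference (log2, striatum minus cortex) in Het animals on the vertical axis against wild-type animals on the horizontal axis, 1 point per gene tested, with the diagonal marking equality and colour marking the 1010 genes called higher and 1229 called lower in Het. Most points follow the diagonal, and Wt1 and Onecut1 lie far above it.

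The test of the difference itself called 2239 genes (12.6%), 1010 (5.69%) with a higher and 1229 (6.92%) with a lower regional difference in Het animals. With limma on log2(FPKM + 0.1) the same test called 1600 higher and 973 lower, so the balance of directions depends on the scale. In 658 of the 2239 genes striatum was higher in both genotypes and less so in Het animals, in 524 striatum was lower in both and less so in Het animals, in 287 the striatal excess was larger in Het animals and in 344 the cortical excess was larger. The sign turned in the remaining genes: 227 were higher in wild-type and lower in Het striatum, and 199 the reverse. Most of these differences were small, with a median size of 0.234, and 75 reached 1 log2 unit, 24 of them higher and 51 lower in Het animals. Het and wild-type means lay farther apart in striatum than in cortex in 2029 of the 2239 genes (90.6%, median separations of 0.234 in striatum and 0.0545 in cortex), against 68.2% of all genes tested. The count was 1808 without the animals with markers of the other region and 1694 without those high in Ttr.

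A few developmental genes had a regional step that was larger or of the opposite sign in Het animals. Wt1, a zinc-finger transcription factor of kidney and gonad development (chromosome 2, start 105126529, end 105173616, plus strand), was at 1.48, 2.21 and 3.53 CPM in Het striatum and at 0.109, 0.243 and 0.41 CPM in Het cortex, against 0, 0.0508 and 0.0912 CPM in wild-type striatum and 0.0625, 0.254 and 0.451 CPM in wild-type cortex. The cortical groups overlapped, and the striatal groups did not. Its regional difference was 3.16 in Het animals and -2.45 in wild-type animals (5.61 ± 0.29, adjusted p = 4.56e-15). Onecut1, a transcription factor of liver and of spinal and retinal neurons, was at 0.999, 1.32 and 1.65 CPM in Het striatum and at 0, 0.113 and 0.341 CPM in Het cortex, with medians of 0.0792 and 0.0878 CPM in wild-type striatum and cortex (3.38 in Het and -0.42 in wild-type animals, 3.79 ± 0.63, adjusted p = 5.69e-05). Sfmbt2 (chromosome 2, start 10370510, end 10595253, plus strand) was at 10.6, 13.2 and 14.1 CPM in Het striatum and at 3.26, 4.35 and 5.76 CPM in Het cortex, with medians of 4.72 and 3.61 CPM in wild-type striatum and cortex. Its regional difference was 1.57 in Het animals and 0.32 in wild-type animals (1.26 ± 0.08, adjusted p = 1.28e-12). For all 3 genes every Het animal lay above every wild-type animal in its own striatum to cortex difference, which was so in either direction for 73 genes (0.411%). For Onecut1 the margin was slight, with the lowest Het animal at 1.82 and the highest wild-type animal at 1.81. Across 30 alternatives the difference between genotypes ran from 0.37 to 4.34 for Onecut1 and from 0.92 to 6.35 for Wt1. Both kept the call in all 30, but at such low levels the size is uncertain. Of 33 listed developmental transcription factors 12 passed the filter on low counts, which a gene can pass through the group where it is high, and these 3 were the ones called. Onecut2, a relative of Onecut1, was 9.53-fold higher in Het striatum and was not called between genotypes (3.25 in Het and 3.13 in wild-type animals).

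**Figure D4:**
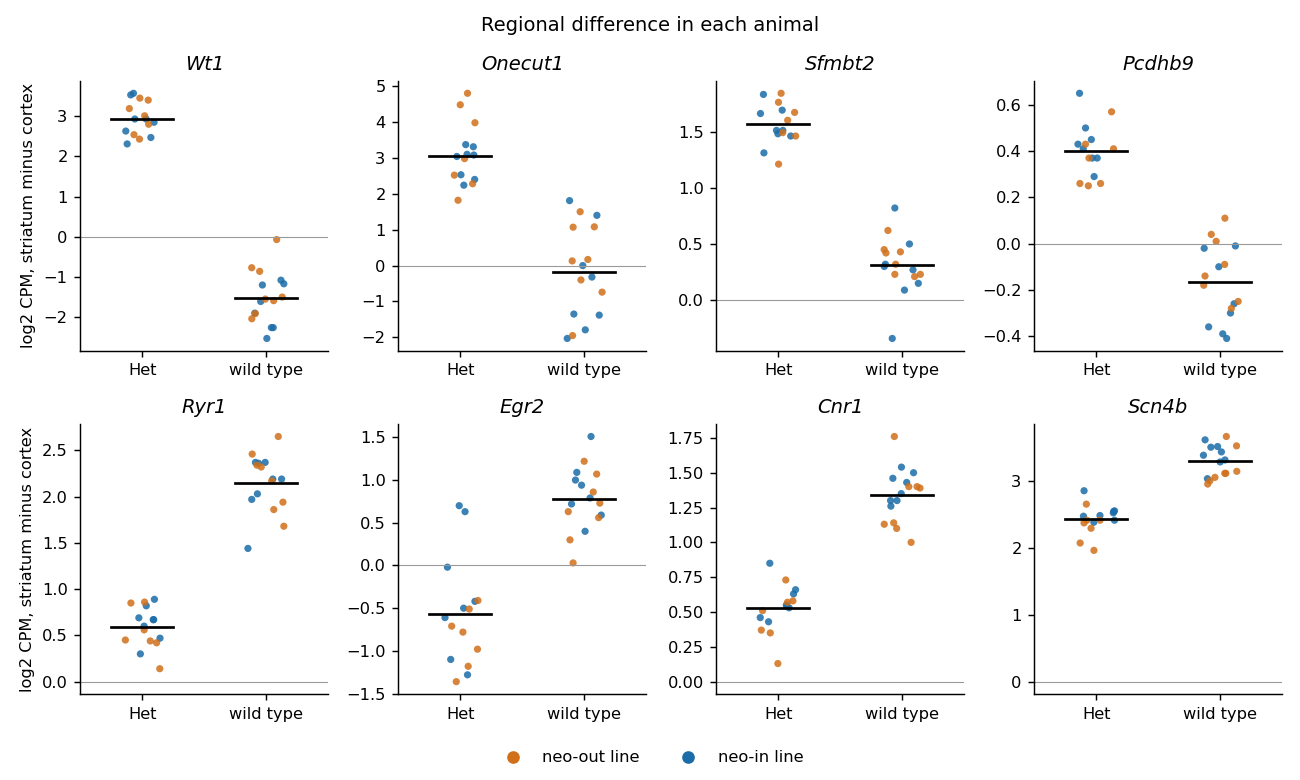
Regional difference of 8 genes in each animal (log2 CPM, striatum minus cortex), Het on the left and wild type on the right, colour giving the line. Wt1, Onecut1, Sfmbt2 and Pcdhb9 were higher in Het animals and Ryr1, Cnr1 and Scn4b lower without overlap, while Egr2 overlapped. For Onecut1 the margin was slight (lowest Het animal 1.82, highest wild-type animal 1.81).

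The beta protocadherins, clustered adhesion genes on chromosome 18 that give neurons single-cell identities, moved together. Of 21 tested, 17 were called higher and 3 lower in Het striatum, with a median of 0.40 in Het animals against 0.06 in wild-type animals. Their regional difference was called for 16 of 21, all higher in Het, where 5.69% of all genes were called higher. Pcdhb9 was at 13.9, 16.4 and 20.8 CPM in Het striatum and at 10.5, 12.7 and 14.9 CPM in Het cortex, with medians of 11 and 12.1 CPM in wild-type striatum and cortex. It thus leaned towards striatum in Het animals (0.40) and towards cortex in wild-type animals (-0.17), a difference of 0.57 ± 0.05 (adjusted p = 6.67e-10) without overlap between animals. Pcdhb13 (0.83 in Het and 0.23 in wild-type animals), Pcdhb19 (0.57 and 0.03) and Pcdhb12 (0.02 and -0.47) were called too. Pcdhb6 was called narrowly (0.32 ± 0.11, adjusted p = 0.045) and lost the call without the animals with markers of the other region (0.22, adjusted p = 0.19). These genes are close copies of one another, so how reads were shared among them is uncertain.

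The 10 genes with the highest regional difference in Het relative to wild-type animals, by size and above 5 CPM, began with Sfmbt2. Kazald1, a secreted matrix protein (-1.14 in Het and -2.19 in wild-type animals, adjusted p = 8.68e-07), and Pcdh20, a protocadherin outside the clusters (-0.35 and -1.34, adjusted p = 5.58e-10), had a cortical excess that was smaller in Het animals. Fam196b (3.29 in Het and 2.31 in wild-type animals, adjusted p = 0.00108) and Cd4 (6.40 and 5.62, adjusted p = 0.00836) had a larger striatal excess. For Cd4 this depended on the scale: limma on log2(FPKM + 1) called the opposite direction (-0.21, adjusted p = 0.0415). Its call was also lost in either line alone and in males alone. Fam196b lost its call in the neo-in line alone and in males alone. Adam33 (-4.63 in Het and -5.47 in wild-type animals, adjusted p = 0.0166) and Myoc (-2.99 and -3.89, adjusted p = 0.0489) were called narrowly and lost the call without the animals high in Prkcd (adjusted p = 0.0965 for Adam33 and 0.239 for Myoc). Adam33 also lost it without those high in Ttr (adjusted p = 0.0654), and Myoc without those with markers of the other region (adjusted p = 0.152). Chat and Htr2c, described above, also belonged to the group.

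The 10 with the lowest regional difference in Het began with Abhd11os, a long noncoding RNA gene, at 0.947, 1.62 and 2.05 CPM in Het striatum and at 0.289, 0.484 and 0.794 CPM in Het cortex, with medians of 5.9 and 0.668 CPM in wild-type striatum and cortex (1.56 in Het and 3.22 in wild-type animals, -1.67 ± 0.18, adjusted p = 6.73e-08). It lies opposite Abhd11, and whether strand was kept is not stated, so reads of the pair cannot be told apart. The others with a smaller striatal excess in Het animals were Ryr1, the phosphate regulator Phex (1.90 in Het and 3.35 in wild-type animals), Clspn, a replication checkpoint gene (4.19 and 5.44), the keratin Krt9 (1.46 and 2.57) and Shisa2 (0.90 and 1.97). Krt9 was at 10.3, 15 and 16.8 CPM in Het striatum and at 4.32, 5.04 and 6.42 CPM in Het cortex, against medians of 32.6 and 5.54 CPM in wild-type striatum and cortex. A larger cortical excess in Het animals was seen in Mas1, an angiotensin-(1-7) receptor (-2.32 in Het and -1.13 in wild-type animals), and Wnt4, a Wnt ligand (-3.37 and -2.24). Egr2 and Ankrd35 (-0.83 in Het and 0.24 in wild-type animals) changed sign.

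**Figure D5:**
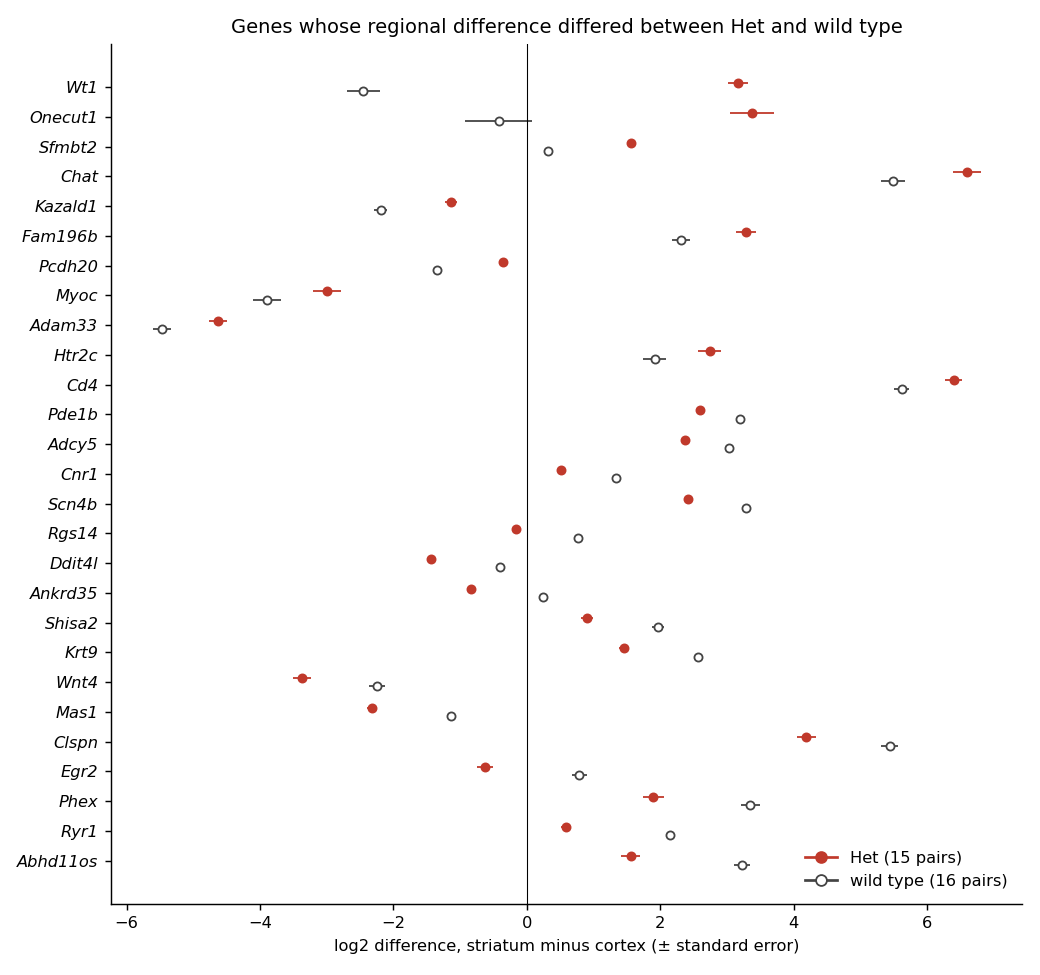
Regional difference (log2, striatum minus cortex, with its standard error) of the named genes most altered in Het animals, Het as filled and wild type as open points. Wt1 at 3.16 and -2.45 and Onecut1 at 3.38 and -0.42 are the widest pairs, each Het value first.

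The regional differences of neo-out Het and neo-in Het animals were set against each other next. With edgeR 0 of 17753 genes were called (1006 genes, 5.67%, had an unadjusted p under 0.05), whereas DESeq2 called 15. Against wild type, the regional difference was called for 751 genes (4.23%) in the neo-out line and for 962 (5.42%) in the neo-in line. The lists shared 470 genes, 62.6% of the neo-out and 48.9% of the neo-in calls, and all 470 had the same direction in both. Wt1 changed by 5.11 in the neo-out and 6.12 in the neo-in line, Ryr1 by -1.65 and -1.48, Scn4b by -0.88 and -0.86 and Cnr1 by -0.83 and -0.81. Female and male Het animals differed in 0 genes as well (edgeR; 648 genes, 3.65%, had an unadjusted p under 0.05), and DESeq2 called 5. A test that calls nothing does not show that the lines or sexes are alike.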

How the data were processed

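Messenger RNA was sequenced from flash-frozen tissue after miRNeasy extraction, per the labels. The authors deposited expected counts per gene (39179 genes, 95 libraries, 32.2% of values above 1 not whole), FPKM of the same libraries, alignment counts per library and each animal's CAG number. Per the submitters' processing notes base calls came from CASAVA 1.8.2 and the genome was mm10; of aligner, counter, gene models and strand setting nothing is given in the sources used here. No value column went unused (0). GENCODE M21 named 37607 of the identifiers and 1572 stayed unnamed. The CAG numbers are other values deposited by the authors and only describe the groups; the FPKM that the authors deposited, scaled to length and depth, served in alternatives alone.

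Here the expected counts were rounded, filtered with filterByExpr, scaled by TMM and fitted with the quasi-likelihood test of edgeR 4.0.16 (R 4.3.3) to 62 libraries, with 1 coefficient per animal (31 animals) and 1 striatum coefficient per line and genotype. The regional difference between genotypes, lines and sexes are contrasts of these coefficients, the sexes in a fit of the Het pairs alone. P-values were adjusted by Benjamini-Hochberg over 17753 genes and called under 0.05. Values per animal are log2 CPM with a prior count of 2, so for low genes they can differ from the fitted ones. limma 3.58.1 and DESeq2 1.42.0 gave alternatives, and the scripts were tested on simulated data.

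Animals were paired by the codes in the labels. Deviations of the same animal's libraries from their group means correlated at a median of 0.0787 (-0.135 to 0.235, over 0.1 in 13 of 31 animals), against -0.0196 for unpaired libraries. The lowest chi-square per gene over 93 replicate pairs was 4.14, so no library was a copy of another. Nothing says more of how replicates were housed or prepared than that they are separate animals.

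The members, the 37 gene lists and the tests were chosen with earlier results of these data known. Named genes followed a rule: Htt; the 10 highest and 10 lowest Het differences among called genes (mean CPM in the higher region 5 or more) with 1 sign in all 15 pairs; up to 6 members per list by p; the 10 highest and 10 lowest regional differences between genotypes (5 CPM or more on average in some group); and up to 4 per list. Predicted genes were counted but not named, and some genes the rule names are not reported here. Sets of animals were left out in added alternatives, chosen after seeing the data: striatal Slc17a7 of at least 60 CPM or cortical Drd2 of at least 4 CPM (1 Het and 6 wild-type), Ttr of at least 200 CPM (2 and 2) and striatal Prkcd of at least 100 CPM (1 and 3). Promoter sequences are from RefSeq. Counts of overlapping genes on opposite strands, among them Chat, Six3, Ryr1, Sfmbt2, Penk, Mas1, Adcy5 and Pde10a with predicted or noncoding partners, cannot be told apart from their partners, and those of close copies are uncertain.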

Additional observations from a re-analysis of the deposited data

Results flagged for a closer look

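Of 82 groups formed by a named gene and a line, 3 held an animal whose striatum to cortex difference stood far from the others of its group, and chance alone gives such a distance in about 1 of 20 groups. All 3 were neo-out Het males, each group holding 7 animals. For Igfn1, replicate 4 had a log2 difference of -4.95, while the other animals lay between -9.19 and -7.89. This animal had the highest striatal Slc17a7 of the Het animals (74.6 CPM) and was the Het animal left out for markers of the other region. For Cd4, replicate 2 was at 5.58 and the others at 6.45 to 6.63. Its cortex had the highest Drd2 of the paired Het animals (2.11 CPM). Whether these marker levels bear on the Igfn1 and Cd4 values was not tested. For Abhd11os, replicate 3 was at 0.45 and the others at 1.39 to 2.03.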

How the results depend on the processing

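The direction and the side of the threshold were kept in 4666 of 4680 alternative values of the Het difference over 151 named genes, and in 1972 of 2100 of the regional difference between genotypes over 70 genes. Of the 1972, 1019 came from fits that left out 1 Het animal and so shared nearly all animals with the main fit. Among the 70 genes, 17 lost the call between genotypes in the neo-in line alone and 18 in the neo-out line alone. In females alone 15 lost it, and in males alone 15. Without the pairing by animal (no replicate block) the counts were 13088 for the Het regions (13350 with it), 2389 of them at 2-fold, 13178 in wild type and 1893 between genotypes; with no block Kdr, Per2, Pcdhb6 and Myoc lost their calls between genotypes. At 2-fold, limma on log2(FPKM + 1) called 916 genes in place of 2418. The regional difference between genotypes, 2239 genes, was called in 876 in the neo-in line alone, 643 in the neo-out line alone, 970 in females alone and 660 in males alone, fits that hold fewer animals. Between the lines, 0 with the main test, the count was 1 with the Het pairs alone, 15 with DESeq2, 3 without the animals with markers of the other region and 2 without those high in Ttr. Between the sexes, also 0, it was 1 with no replicate block, 5 with DESeq2 and 1 with no filter on low counts. Leaving out each Het animal in turn, with the trended dispersion kept, gave 13057 to 13304 genes for the Het regions, 2389 to 2462 at 2-fold, 13449 to 13509 in wild type, 2000 to 2402 between genotypes and 0 to 2 between lines. The regional difference of Cd4 between genotypes turned to -0.21 with limma on log2(FPKM + 1) and was called in that direction (adjusted p = 0.0415). The Het difference of Pcdhb12, which was not called, ran from -0.00 to 0.05 when each animal was left out. The cause was not tested for either gene. Genes near 0 CPM in a region, such as Lhx8, Dsg1c and Ntn5, have differences whose size is limited by depth.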

Other observations

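Of 6 glutathione peroxidase genes tested, 2 were called higher and 1 lower in Het striatum than in Het cortex. Gpx6, a peroxidase known from olfactory tissue and striatum, was at 0.397, 0.856 and 1.84 CPM (lowest, median, highest) in Het striatum and at 0, 0 and 0.339 CPM in Het cortex, with medians of 4.64 CPM in wild-type striatum and 0.0296 CPM in wild-type cortex. Its fitted regional difference was 4.85 ± 0.35 in Het and 7.03 ± 0.27 in wild-type animals (SE). The animals of the 2 genotypes did not overlap, but the fitted difference between genotypes was not called by edgeR (adjusted p = 0.142), on 20 counts in all cortex libraries of either genotype, while DESeq2 called 1 of the 6 genes lower. Of 34 nuclear genes of the respiratory chain 15 were higher and 11 lower in Het striatum, none by 2-fold, whereas all 13 mitochondrial transcripts were higher. Choroid plexus and ependymal genes, 14 tested, summed to 51.2 to 126 CPM in Het striatum and to 18.4 to 700 CPM in Het cortex, against 45 to 1489 CPM in wild-type striatum and 17.7 to 1742 CPM in wild-type cortex.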
